A study of Mus musculus with 20 samples.

Results

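The CC chemokines that draw monocytes and eosinophils into inflamed tissue, Ccl2, Ccl3, Ccl4, Ccl5, Ccl7, Ccl8, Ccl11 and Ccl24, were followed together with Ccr2, the receptor that monocytes use to leave the blood, in skin of mice injected with IL-23. The members are all probe-sets that the array annotation assigns to a single one of these 9 genes. Among the 18194 genes with such a probe-set, these 9 have 12 of the 45101 probe-sets, with 1 for each of the 8 ligands and 4 for Ccr2, and all 12 were tested. Full-thickness skin of 20 female C57BL/6 mice, aged 6 weeks at purchase and housed for 1 week, was hybridized to Affymetrix mouse4302 arrays, 1 array per mouse and 5 mice per group. IL-23 + IMO-8400 mice received recombinant murine IL-23 (3 µg daily into the dorsal skin, day 1 to 4) and IMO-8400, an oligonucleotide antagonist of TLR7, TLR8 and TLR9. IL-23 + IMO-3100 mice received the same IL-23 and IMO-3100, an oligonucleotide antagonist of TLR7 and TLR9. Both antagonists were given at 15 mg/kg under the skin at a distant site on days 4, 5 and 6, and IL-23 + saline mice, called saline mice here, received buffer instead. Naïve mice were normal mice without IL-23, so that the design has no group injected with buffer into the dorsal skin in place of IL-23. Skin was collected on day 7 in all mice. The antagonists were thus begun on the last day of IL-23 injection, and each group shows 1 time point. The record of the series speaks of 2 doses of 1 antagonist, whereas the sample records name 2 agents, and the sample records were followed.

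Chemokines are small secreted proteins that bind to G protein-coupled receptors on leukocytes and direct their movement. In mice, Ccl2 and Ccl7 are ligands of Ccr2 and bring Ly6C-high monocytes out of the bone marrow and into tissue, Ccl3 and Ccl5 act on Ccr1, and Ccl11 and Ccl24 are the eotaxins, which act on Ccr3 of eosinophils. Mouse Ccl8 is best known as a ligand of Ccr8. Skin macrophages, fibroblasts, keratinocytes, T cells and NK cells are all known sources of members of the family. Whole skin holds all of these cells, and a lower value can come from fewer cells of a type or from less RNA per cell, which cannot be told apart in bulk tissue.

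All levels below are log2 values from GCRMA. Where each of the 5 arrays of a group read below 3, the group was taken as near background. Levels are compared between groups at 1 probe-set and never between genes, since probe-sets differ in how they bind. A probe-set was a DEG when limma gave an FDR below 0.05 together with a FCH above 2, and the FDR was adjusted over the 30960 probe-sets tested. Array medians lay between 6.09 and 6.29. One array stood apart, that of naïve replicate 1, with an array weight of 0.11 in limma, where the other 19 had weights between 0.59 and 1.97. The mean log2 level of 14 monocyte and macrophage markers was 9.73 in this mouse, whereas the other naïve mice lay between 11.05 and 12.43, and it had the highest mean of 9 hair follicle genes, at 13.31, among naïve means that went down to 3.43. Skin was clearly represented in all groups, with means of 9 keratinocyte and fibroblast markers between 13.98 and 14.59.

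Most of the ligands were higher in saline mice than in naïve mice. In saline mice against naïve mice, 8 of the 12 probe-sets were DEGs with a higher level, covering 7 genes, and 1 was a DEG with a lower level, where 7.58% of all tested probe-sets were called higher and 8.92% lower. The ligands that rose were Ccl3, Ccl4, Ccl5, Ccl7, Ccl2 and Ccl11, Ccr2 rose at 2 of its 4 probe-sets, and Ccl24 fell. Ccl8 was not a DEG. The median log2FC was 2.77 over the 12 probe-sets, against -0.04 over all tested probe-sets.

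Ccl3, Ccl4 and Ccl5 showed the widest separation from naïve skin. Ccl3 (MIP-1α, made by activated macrophages and other leukocytes) had log2 values of 11.06, 12.37, 12.53, 10.70 and 9.74 in saline mice and 2.20, 2.18, 2.20, 3.32 and 3.98 in naïve mice. No saline mouse came near a naïve one, and 3 of the 5 naïve arrays lay at background. Ccl3 was up-regulated by 362-fold (log2FC 8.50 ± 0.48, SE, limma FDR 9.94e-10), a size that depends in part on the lowest values of the array, since log2FC was 7.28 with values under 4 set to 4. Ccl4 (MIP-1β, the closest relative of Ccl3) measured 10.21, 11.29, 11.64, 9.43 and 8.42 in saline mice and 2.98, 3.00, 3.37, 4.14 and 4.02 in naïve mice. The groups were again far apart, and within saline mice the same mice were high for both genes. Ccl4 was up-regulated by 104-fold (log2FC 6.70 ± 0.51, limma FDR 2.94e-08), or by 6.17 on the log2 scale with values under 4 set to 4.

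Ccl5 (RANTES, a product of T cells, NK cells and macrophages) had values of 13.16, 13.19, 13.11, 13.04 and 12.87 in saline mice and 3.17, 7.24, 8.59, 7.70 and 7.93 in naïve mice. Saline mice were nearly equal to each other, and in the naïve group replicate 1 lay far below the rest. Ccl5 was up-regulated by 70.9-fold (log2FC 6.15 ± 0.66, limma FDR 1.54e-06), and log2FC was 5.21 without naïve replicate 1 (limma FDR 5.4e-10).

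The Ccr2 ligands rose less and with more overlap. Ccl2 (MCP-1) measured 13.66, 13.97, 13.79, 12.69 and 12.66 in saline mice and 8.49, 9.92, 9.54, 13.32 and 11.05 in naïve mice. Naïve replicate 4 lay among the saline mice, whereas the other 4 naïve mice lay below all of them. Up-regulation of Ccl2 was 7.42-fold (log2FC 2.89 ± 0.63, limma FDR 0.00124). Ccl7 (MCP-3) had 12.96, 13.24, 12.93, 12.15 and 12.31 in saline mice and 6.63, 8.45, 8.91, 12.93 and 10.26 in naïve mice, with the same naïve mouse inside the saline range. Its FCH was 9.72 (log2FC 3.28 ± 0.76, limma FDR 0.00196). Without naïve replicate 4, log2FC was 3.60 for Ccl2 and 4.15 for Ccl7, and without naïve replicate 1 it was 2.40 for Ccl2 and 2.58 for Ccl7, and both remained DEGs in each case. Ccl12 (MCP-5, a mouse Ccr2 ligand that is no member here) was likewise high in naïve replicate 4, at 13.31, where the other naïve mice lay between 6.58 and 10.80. The monocyte and macrophage mean of naïve replicate 4, 12.18, was within the range of the other naïve mice. This mouse also had the highest naïve value of the receptor Ccr1 at 1419609_at, 8.60, which lay within the saline range of 7.74 to 10.14. It was thus high in these 3 ligands and in Ccr1, and not in the marker mean.

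Ccl11 (eotaxin-1, made by fibroblasts and epithelial cells) had 12.68, 11.77, 11.57, 11.55 and 11.31 in saline mice and 9.74, 10.06, 10.75, 10.60 and 10.75 in naïve mice, without overlap. It was up-regulated by 2.63-fold (log2FC 1.39 ± 0.25, limma FDR 0.000263). Ccl8 (MCP-2) was close to the top of the scale of the array in every group, with 14.40 to 14.56 in saline mice and 13.19 to 14.44 in naïve mice. The naïve range touched the saline range, and log2FC was 0.45 ± 0.17 (limma FDR 0.0394), under the FCH threshold.

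Ccl24 (eotaxin-2, a product of macrophages) went the other way. Its values were 2.65, 2.47, 2.20, 2.37 and 3.48 in saline mice and 2.92, 6.74, 7.97, 5.89 and 7.42 in naïve mice. All saline mice lay at or just above background, as did naïve replicate 1, whereas the other 4 naïve mice had clear signal. Ccl24 was down-regulated by 11.8-fold (log2FC -3.56 ± 0.61, limma FDR 0.000171), and log2FC was -2.40 with values under 4 set to 4 and -4.37 without naïve replicate 1. In IL-23 + IMO-8400 mice its highest value was 2.94, and in IL-23 + IMO-3100 mice 2.37, so that both groups were near background. Against naïve mice Ccl24 was at least 9.21-fold lower in both IL-23 + IMO-8400 mice (limma FDR 0.000466) and IL-23 + IMO-3100 mice (limma FDR 0.000241), with values raised to 3. No fold is given for either antagonist against saline, as 4 of the 5 saline arrays also lay below 3. The hair follicle genes were also lower in saline mice (9 of 9 called). Within the naïve group, replicate 1, the array that stood apart, had the highest hair follicle mean and the lowest Ccl24. Whether hair follicle content has a part in the Ccl24 values was not tested.

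**Figure D1:**
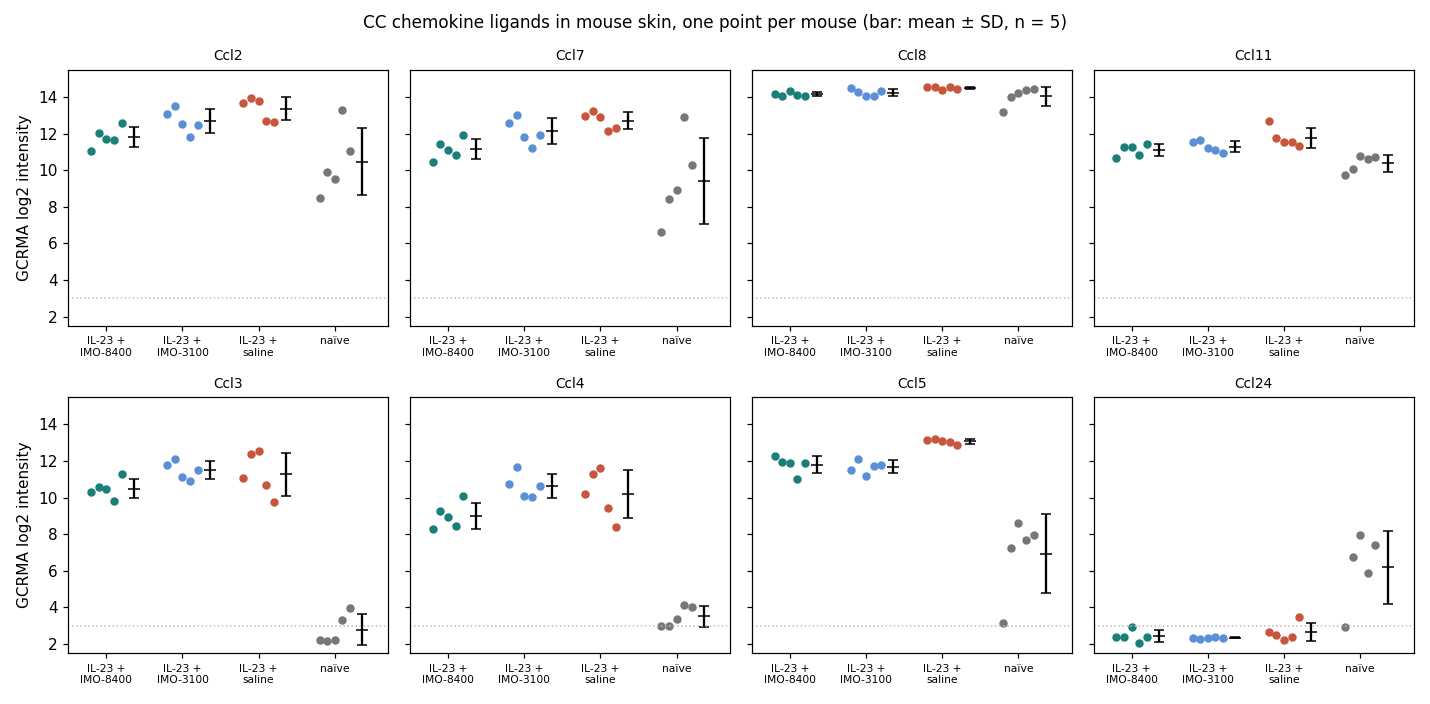
GCRMA log2 intensity (vertical axis) of the 8 ligands in each mouse, with IL-23 + IMO-8400, IL-23 + IMO-3100, IL-23 + saline and naïve mice from left to right. Each point is 1 mouse, the bar is the mean ± SD of 5 mice and the dotted line is the background level of 3. Ccl3, Ccl4 and Ccl5 of all 15 IL-23-injected mice lie above all naïve mice, Ccl24 of all 15 lies below 4, and 1 naïve mouse has Ccl2 and Ccl7 among the saline values.

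Upstream sequence from RefSeq (GRCm38.p6) was at hand for 3 of the 9 members. Ccl3 and Ccl8 are printed because they are opposites here, Ccl3 with the steepest rise and near background in most naïve mice, and Ccl8 high in all groups and not called. The window at hand for Ccr2 lies inside the gene and is not printed. The 250 bases before each start site are written 5′ to 3′ on the strand of the gene, Ccl3 from chr11:83649379-83649628 (minus strand) and Ccl8 from chr11:82114935-82115184 (plus strand), and capitals mark the TATA box core TATAA on either strand.
Ccl3: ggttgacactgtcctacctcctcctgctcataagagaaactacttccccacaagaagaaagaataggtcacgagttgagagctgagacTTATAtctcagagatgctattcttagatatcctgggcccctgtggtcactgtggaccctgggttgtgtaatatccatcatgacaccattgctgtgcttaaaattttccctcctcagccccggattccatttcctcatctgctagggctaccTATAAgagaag
Ccl8: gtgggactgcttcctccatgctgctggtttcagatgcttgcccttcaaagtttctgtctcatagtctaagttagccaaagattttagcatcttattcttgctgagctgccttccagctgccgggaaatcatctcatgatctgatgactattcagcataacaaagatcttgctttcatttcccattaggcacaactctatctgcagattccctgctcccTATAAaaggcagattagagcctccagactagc
In Ccl8 the core began 32 bases before the annotated start, in Ccl3 it began 11 bases before it, and Ccl3 held a second copy on the opposite strand. This core was present in 22.8% of the 32851 windows of that length. The PU.1 core GAGGAA, searched on both strands, was found in both genes and in 23.3% of windows. The paired C/EBP half-sites TTNNGNAA, searched on both strands, were found in Ccl3 and not in Ccl8, and in 36.8% of windows. No match to the AP-1 site TGANTCA (6.75% of windows) or to the κB site (7.25% of windows) was found in either stretch, which says only that these letters are not in the window.

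Ccr2 is the receptor for Ccl2 and Ccl7 on inflammatory monocytes, and 4 probe-sets read it. At 1460067_at the values were 9.82, 9.69, 9.65, 9.18 and 8.74 in saline mice and 3.33, 5.29, 7.61, 7.93 and 8.62 in naïve mice. The naïve mice were spread over a wide range just below the saline mice, without overlap. The FCH was 7.26 (log2FC 2.86 ± 0.69, limma FDR 0.00286). At 1421187_at, with 9.03 to 10.65 in saline mice and 3.54 to 9.05 in naïve mice, it was 6.41 (log2FC 2.68 ± 0.69, limma FDR 0.00431). The brightest probe-set, 1421186_at, rose by 0.98 ± 0.34 on the log2 scale (limma FDR 0.0253), just under the FCH threshold, and 1421188_at had a log2FC of 0.96 ± 0.44 (limma FDR 0.0825). Naïve replicate 1 was the lowest of the naïve mice at each of the 4 probe-sets, and without it log2FC was 2.05 at 1460067_at and 1.76 at 1421187_at, where the gene remained a DEG, and 0.51 and 0.41 at the others.

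Both antagonists lowered Ccr2, while no ligand passed the test. In IL-23 + IMO-8400 mice against saline mice, 3 of 12 probe-sets were DEGs with a lower level and 0 with a higher one, where 3.59% of all tested probe-sets were called lower and 4.46% higher. In IL-23 + IMO-3100 mice the same counts were 3 and 0, with a background of 3.73% lower and 2.69% higher. All 3 were Ccr2 probe-sets in both comparisons, which share the saline arrays. Of the 8 ligands, 0 were called in limma, although 3 (IMO-8400) and 1 (IMO-3100) were lower at an unadjusted p under 0.05. The median log2FC of the 12 probe-sets was -1.24 with IMO-8400 and -0.62 with IMO-3100, against 0.01 over all tested probe-sets in each comparison.

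The drop was deepest at 1460067_at. Ccr2 had 5.59, 5.25, 6.25, 4.90 and 6.14 in IL-23 + IMO-8400 mice, 5.90, 6.09, 5.28, 5.21 and 5.66 in IL-23 + IMO-3100 mice, and 8.74 to 9.82 in saline mice. Every antagonist-treated mouse lay more than 2 log2 units below every saline mouse. Ccr2 was down-regulated by 13.8-fold with each antagonist (log2FC -3.79 ± 0.69 for both, limma FDR 0.000835 with IMO-8400 and 0.000978 with IMO-3100). At 1421187_at, values of 6.54 to 7.81 with IMO-8400 and 7.12 to 8.02 with IMO-3100 stood below the saline range, with log2FC of -2.67 (limma FDR 0.0083) and -2.31 (limma FDR 0.0192).

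At 1421188_at, log2FC was -1.45 with IMO-8400 (limma FDR 0.0198) and -1.30 with IMO-3100 (limma FDR 0.0357). The call for IMO-3100 at this probe-set is lost with no filter on probe-sets (limma FDR 0.0665) and on leaving out any IMO-3100 mouse or any of saline replicates 1 to 4 (limma FDR 0.0521 to 0.0805), and that for IMO-8400 on leaving out saline replicate 1 (limma FDR 0.0503). At 1421186_at Ccr2 had 11.71 to 12.12 with IMO-8400, 11.89 to 12.24 with IMO-3100 and 12.38 to 13.04 in saline mice, lower without overlap. Neither the FCH nor the FDR threshold was met there, with log2FC of -0.88 (limma FDR 0.0606) and -0.71 (limma FDR 0.131). Thus all 4 probe-sets were lower in every treated mouse, and the size of the difference ranged widely between probe-sets of the gene.

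Ccl5 was the ligand with the clearest separation between treated and saline mice. It measured 12.28, 11.93, 11.89, 11.03 and 11.87 in IL-23 + IMO-8400 mice, 11.53, 12.13, 11.18, 11.72 and 11.81 in IL-23 + IMO-3100 mice, and 12.87 to 13.19 in saline mice. All 10 treated mice were below all saline mice. Log2FC was -1.27 ± 0.66 with IMO-8400 (limma FDR 0.16) and -1.40 ± 0.66 with IMO-3100 (limma FDR 0.127), which did not pass the test. The common spread of the fit includes the low naïve replicate 1, and without that mouse, which is in neither comparison, Ccl5 was a DEG with both antagonists (limma FDR 0.000722 and 0.000398). Across the members, 8 of 12 probe-sets with IMO-8400 and 5 of 12 with IMO-3100 were lower in every treated mouse than in every saline mouse, where 12.8% and 11.6% of all tested probe-sets were. With IMO-8400 these were Ccr2, Ccl5, Ccl2, Ccl7 and Ccl8, and with IMO-3100 Ccr2 and Ccl5.

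Ccl2 and Ccl7 stood between. Ccl2 had 11.05, 12.05, 11.72, 11.67 and 12.58 in IL-23 + IMO-8400 mice and 13.07, 13.51, 12.53, 11.83 and 12.50 in IL-23 + IMO-3100 mice, against 12.66 to 13.97 in saline mice. The IMO-8400 mice were just below the saline range and the IMO-3100 mice overlapped it. The log2FC of Ccl2 was -1.54 with IMO-8400 (limma FDR 0.0746) and -0.67 with IMO-3100 (limma FDR 0.474), and that of Ccl7 -1.55 (limma FDR 0.134) and -0.58 (95% interval -2.17 to 1.01). With IMO-8400, Ccl2 was a DEG without naïve replicate 1 (limma FDR 0.0394) and without naïve replicate 4 (0.0134), and Ccl7 without naïve replicate 4 (0.0293), though neither mouse is part of that comparison.

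Ccl3 and Ccl4 remained high. Ccl3 had 10.33, 10.57, 10.45, 9.82 and 11.27 in IL-23 + IMO-8400 mice and 11.80, 12.13, 11.12, 10.93 and 11.52 in IL-23 + IMO-3100 mice, and both ranges fell within that of saline mice. The log2FC was -0.79 (95% interval -1.79 to 0.21) and 0.22 (-0.78 to 1.22). Ccl4 had 8.27, 9.24, 8.94, 8.43 and 10.06 in IL-23 + IMO-8400 mice and 10.73, 11.65, 10.08, 10.05 and 10.63 in IL-23 + IMO-3100 mice, against 8.42 to 11.64 in saline mice. Both treated groups overlapped saline mice, with log2FC of -1.21 (-2.29 to -0.13, limma FDR 0.0871) and 0.43 (-0.64 to 1.51). With IMO-8400, Ccl4 was a DEG without saline replicate 5 (log2FC -1.65, limma FDR 0.0144). For Ccl11 log2FC was -0.67 and -0.48, and for Ccl8 -0.35 and -0.26, with IMO-8400 and IMO-3100 in that order.

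**Figure D2:**
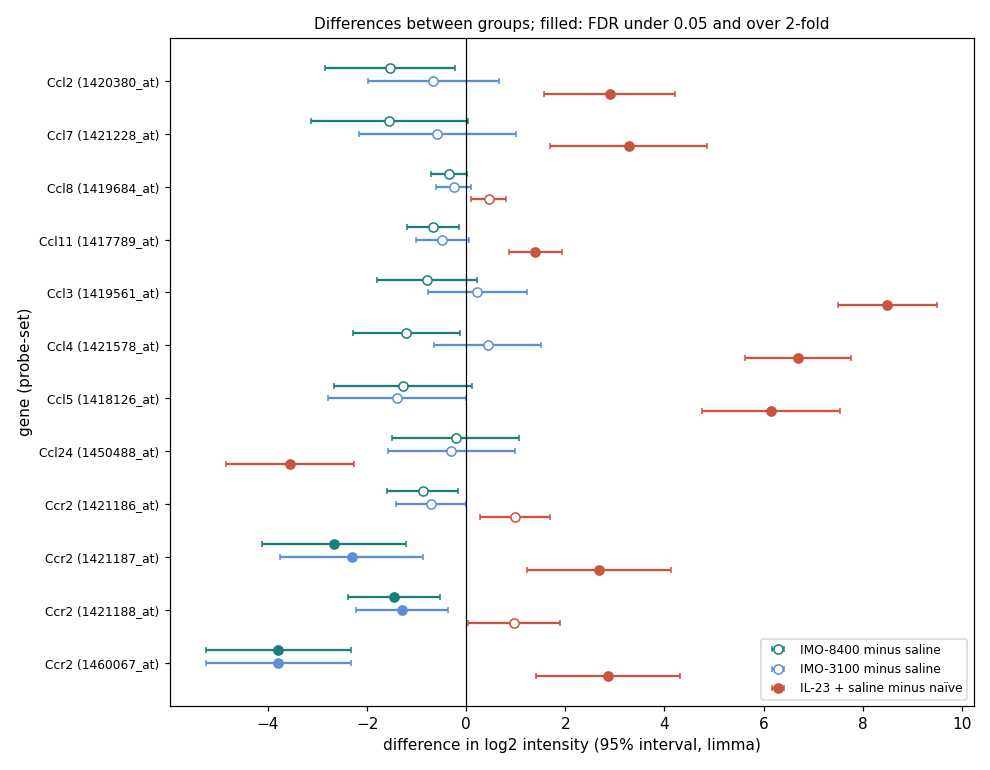
Differences in log2 intensity (horizontal axis) for the 12 probe-sets, with 95% intervals of limma, for IMO-8400 minus saline, IMO-3100 minus saline and IL-23 + saline minus naïve. Filled points are DEGs. The filled points of the antagonists are at 3 Ccr2 probe-sets, between -3.79 and -1.30. Those of IL-23 + saline minus naïve lie at 6 ligands and 2 Ccr2 probe-sets above 0 and at Ccl24 below 0.

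Ccr1, the receptor of Ccl3 and Ccl5 on monocytes and neutrophils, also fell with both antagonists. At 1419609_at it had 3.61, 3.67, 3.71, 2.43 and 5.09 in IL-23 + IMO-8400 mice, 2.58, 4.00, 5.31, 3.95 and 4.08 in IL-23 + IMO-3100 mice, 8.91, 9.88, 10.14, 7.99 and 7.74 in saline mice, and 2.06, 5.11, 5.89, 8.60 and 7.30 in naïve mice. Treated mice lay below all saline mice and within the naïve range. Ccr1 rose by 3.14 on the log2 scale in saline mice against naïve mice (limma FDR 0.00834), and log2FC against saline was -5.23 with IMO-8400 (limma FDR 0.000497) and -4.95 with IMO-3100 (limma FDR 0.000873). A further probe-set of the gene, 1419610_at, gave 3.48, -4.93 and -4.38, all DEGs, where 4 of the 5 IMO-8400 arrays lay below 3. The rise of Ccr1 in saline mice without naïve replicate 1 was 2.21 (limma FDR 0.0163) and 2.92 (limma FDR 0.000824) at the 2 probe-sets.

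**Figure D3:**
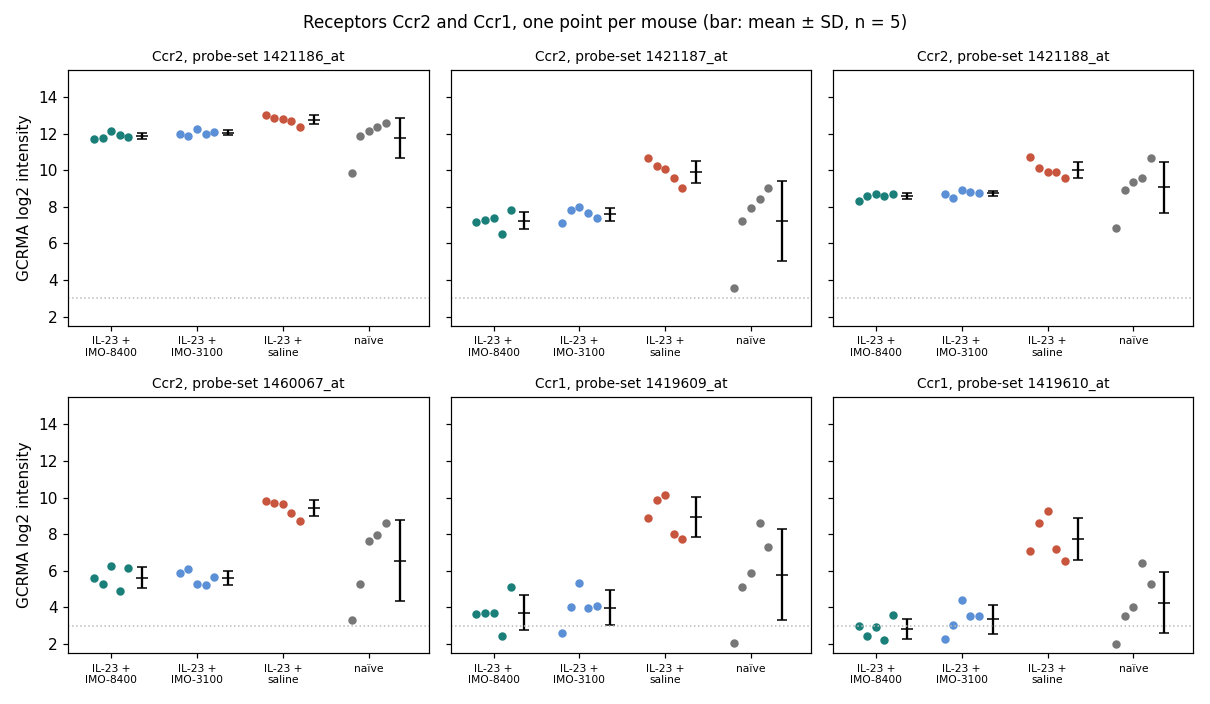
GCRMA log2 intensity (vertical axis) of Ccr2 at 4 probe-sets and Ccr1 at 2 probe-sets, with the groups from left to right as for the ligands. Points are single mice, the bar is the mean ± SD of 5 mice and the dotted line is the background level of 3. At each of the 6 probe-sets all 10 antagonist-treated mice lie below all 5 saline mice.

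Compared with each other at the same dose and time, the antagonists gave no DEG among the members. In IL-23 + IMO-8400 mice against IL-23 + IMO-3100 mice, 0 of 12 probe-sets were called in limma, where 0.333% of all tested probe-sets were called higher and 0.245% lower, and 2 were lower at an unadjusted p under 0.05. These were Ccl4, with log2FC -1.64 (95% interval -2.72 to -0.56, limma FDR 0.0762), and Ccl3, with log2FC -1.01 (-2.01 to -0.01, limma FDR 0.226). At Ccl4 the highest IMO-8400 mouse, 10.06, just passed the lowest IMO-3100 mouse, 10.05. With limma on these 2 groups alone Ccl4 was a DEG (limma FDR 0.0416), as it was with array weights (0.0471) and without saline replicate 5 (0.0459). The interval of Ccl2 was -2.19 to 0.44, that of Ccl7 -2.56 to 0.61 and that of Ccl5 -1.26 to 1.52. Ccl11 (-0.72 to 0.34) and Ccl8 (-0.45 to 0.27) had narrower ones. For Ccr2 the intervals were -0.88 to 0.54 at 1421186_at, -1.80 to 1.09 at 1421187_at, -1.08 to 0.77 at 1421188_at and -1.46 to 1.46 at 1460067_at, so that differences over 2-fold in either direction remain possible at 2 of these 4 probe-sets. Ccl24 was near background in both groups.

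Against naïve mice, Ccl3, Ccl4 and Ccl5 stayed higher in both treated groups, while Ccl8, Ccl11 and Ccr2 were not DEGs in either. With IMO-3100, Ccl11 missed only the FCH threshold (log2FC 0.91, limma FDR 0.012) and did not overlap naïve mice. With IMO-8400 its log2FC was 0.72 (limma FDR 0.0547). In IL-23 + IMO-8400 mice, 3 probe-sets were higher and 1 lower, where 3.60% of all tested probe-sets were called higher and 2.43% lower. Ccl3 (log2FC 7.71), Ccl4 (5.49) and Ccl5 (4.88) were the 3, with Ccl24 the lower one. In IL-23 + IMO-3100 mice, 5 were higher and 1 lower, with a background of 4.90% and 4.55%, as Ccl2 (log2FC 2.23) and Ccl7 (2.70) joined Ccl3 (8.72), Ccl4 (7.13) and Ccl5 (4.75). These comparisons share the naïve mice with that of saline mice, where the log2FC had been 8.50 for Ccl3, 6.70 for Ccl4 and 6.15 for Ccl5. Without naïve replicate 1, the log2FC of Ccl5 was 3.94 with IMO-8400 and 3.81 with IMO-3100, and it remained a DEG in both (limma FDR 3.17e-08 and 3.2e-08). Ccl2 and Ccl7 in IL-23 + IMO-3100 mice lost the call with naïve replicates 1 and 2 left out (limma FDR 0.123 and 0.122) and with the 2 groups alone (0.0869 and 0.0962). Without naïve replicate 1, Ccr2 was a DEG below naïve mice at 1460067_at with both antagonists (log2FC -1.74 for each, limma FDR 0.0202 with IMO-8400 and 0.0133 with IMO-3100), whereas log2FC over all mice was -0.93 for each and not called (limma FDR 0.369 and 0.334).

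Other genes of the pathway were read from lists. Of 6 further receptors and scavengers, Ccrl2 (an atypical receptor that presents chemerin) and Ccr1 rose in saline mice, and these same 2 were the ones that fell with each antagonist. Ccrl2 had a log2FC of 4.39 in saline mice against naïve mice (limma FDR 9.43e-06), and of -1.97 with IMO-8400 (limma FDR 0.0144) and -2.03 with IMO-3100 (limma FDR 0.0131) against saline. Ackr1, Ackr2 and Ackr4, scavengers of chemokines, were not DEGs in any of these 3 comparisons. The eotaxin receptor Ccr3 had a highest value of 2.04 with IMO-8400 and 2.28 with IMO-3100, against 3.56 in saline mice and 2.14 in naïve mice, so that the defining receptor of eosinophils was at or near background.

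Among 6 related chemokines, Ccl12 (log2FC 2.76, limma FDR 0.0151) and Ccl22 (1.12, limma FDR 0.0123), a macrophage and dendritic cell product that binds Ccr4, rose in saline mice, and Ccl17, also a Ccr4 ligand, was lower with IMO-3100 than in saline mice (log2FC -2.27, limma FDR 0.0122). Ccl6, Ccl9 and Ccl1 were not DEGs in saline against naïve mice (log2FC 0.40, 0.61 and 0.83). Without naïve replicate 1, only Ccl12 of the 6 was called in saline mice (log2FC 2.03, limma FDR 0.0423), and it was then also called lower with IMO-8400 than in saline mice (log2FC -2.09, limma FDR 0.0382, against 0.0807 with all mice).

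Of 13 genes that carry the signal of chemokine receptors, 11 were higher in saline mice than in naïve mice, led by the Src family kinase Fgr (log2FC 4.86), the actin regulator Was (2.87) and the exchange factor Vav1 (2.87), with a list median of 1.89. Against saline, 0 of 13 were called in limma with either antagonist, with 1 lower (IMO-8400) and 1 higher (IMO-3100) at an unadjusted p under 0.05, and medians of -0.36 and 0.14. Against naïve mice 8 were still higher with IMO-8400 and 11 with IMO-3100. Without naïve replicate 1 these counts were 8 in saline mice, 6 with IMO-8400 and 9 with IMO-3100, and 2 of 13 were called lower with IMO-8400 against saline. These were Fgr and Was, and the rise of Fgr in saline mice was then 3.98 on the log2 scale.

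Of 9 cytokines known to induce or follow these chemokines, 6 rose in saline mice and 4 fell with each antagonist. Il6, with a mean of 8.65 in saline mice, was near background in both treated groups and in naïve mice, and was at least 50.3-fold lower with IMO-8400 (limma FDR 2.14e-09) and with IMO-3100 (limma FDR 1.61e-09). Il1b, an inducer of Ccl2 and Ccl3, rose by 5.78 on the log2 scale in saline mice and had a log2FC against saline of -3.60 with IMO-8400 (limma FDR 2.58e-06) and -2.57 with IMO-3100 (limma FDR 8.44e-05). Tnf rose by 1.05 (limma FDR 0.00097), with log2FC of -0.40 and -0.37 under the antagonists, not called. Of the type 2 cytokines, known inducers of eotaxins, Il4 (log2FC 0.04) and Il13 (0.75) were not called in saline mice and Il5 was not tested, as it lay at the lowest value of 2.02 on all 20 arrays. Without naïve replicate 1, 4 of the 9 cytokines were called in saline mice, and Tnf was not among them.

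Markers of the cells that carry these receptors moved unevenly. The mean of 14 monocyte and macrophage markers lay between 11.68 and 12.30 with IMO-8400, 12.47 and 12.69 with IMO-3100, 12.36 and 12.67 in saline mice, and 9.73 and 12.43 in naïve mice. Of the 14, 7 rose and 1 fell in saline mice, led by Ms4a4c (log2FC 3.14), Itgam (2.59) and Cd14 (2.52). With IMO-8400 against saline 1 fell, Itgam, and 4 of the 14 were lower at an unadjusted p under 0.05 in limma. Under IMO-3100, 0 were called in limma and 0 had an unadjusted p under 0.05. Every list mean with IMO-8400 lay below every saline mean, though the median log2FC of the list was -0.05. The list means with IMO-3100 overlapped those of saline mice. The single genes went both ways with IMO-3100, for example Plac8 with a log2FC of -0.69 and Cd163 with 0.67, and their part in the values of Ccr2 and Ccr1 was not tested. Without naïve replicate 1, 5 of 14 fell with IMO-8400 and 0 with IMO-3100.

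Neutrophil markers, 7 in number, all rose in saline mice, and 6 fell with IMO-8400 and 5 with IMO-3100. Means were 7.57 to 8.34 with IMO-8400, 7.52 to 8.47 with IMO-3100, 9.64 to 10.95 in saline mice and 5.16 to 6.63 in naïve mice. This list holds S100a8 and S100a9, which the paper counts among IL-17-regulated genes of keratinocytes, so that its level need not come from neutrophils alone. Markers of T and NK cells, which are known sources of Ccl5, rose in 7 of 8 cases and fell in 4 with IMO-8400 and 5 with IMO-3100, with means of 9.13 to 9.71, 8.92 to 9.67, 9.89 to 10.63 in saline mice and 5.74 to 8.28 in naïve mice. Cd4 went the other way, with means of 11.09 with IMO-8400, 11.21 with IMO-3100 and 10.03 in saline mice, and Cd3e averaged 9.70, 9.68 and 9.86, neither of them called. The ranges of the list mean separated the treated mice from saline mice, as did those of Ccl5 and of the neutrophil list. Mast cell list means were also separated, though barely, with a highest treated mean of 10.57 and a lowest saline mean of 10.58. Only Hdc of these 7 genes was called lower with either antagonist. Its means were 8.42 with IMO-8400, 8.72 with IMO-3100 and 11.27 in saline mice. The median log2FC of the mast cell list was -0.09 with IMO-8400 and -0.04 with IMO-3100. What part these cells have in the values of the members was not tested. Of the eosinophil markers, Epx, Prg2 and Il5ra varied too little across arrays to be tested, with highest values of 2.02, 2.37 and 2.45. Of the 3 tested, Alox15 rose in saline mice (log2FC 2.21) and fell with both antagonists (-1.49 with IMO-8400, -3.53 with IMO-3100). Siglecf also fell with both (-1.54 and -1.89), while its difference between saline and naïve mice (means of 5.38 and 4.26) was not called. Alox15 is also made by macrophages.

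**Figure D4:**
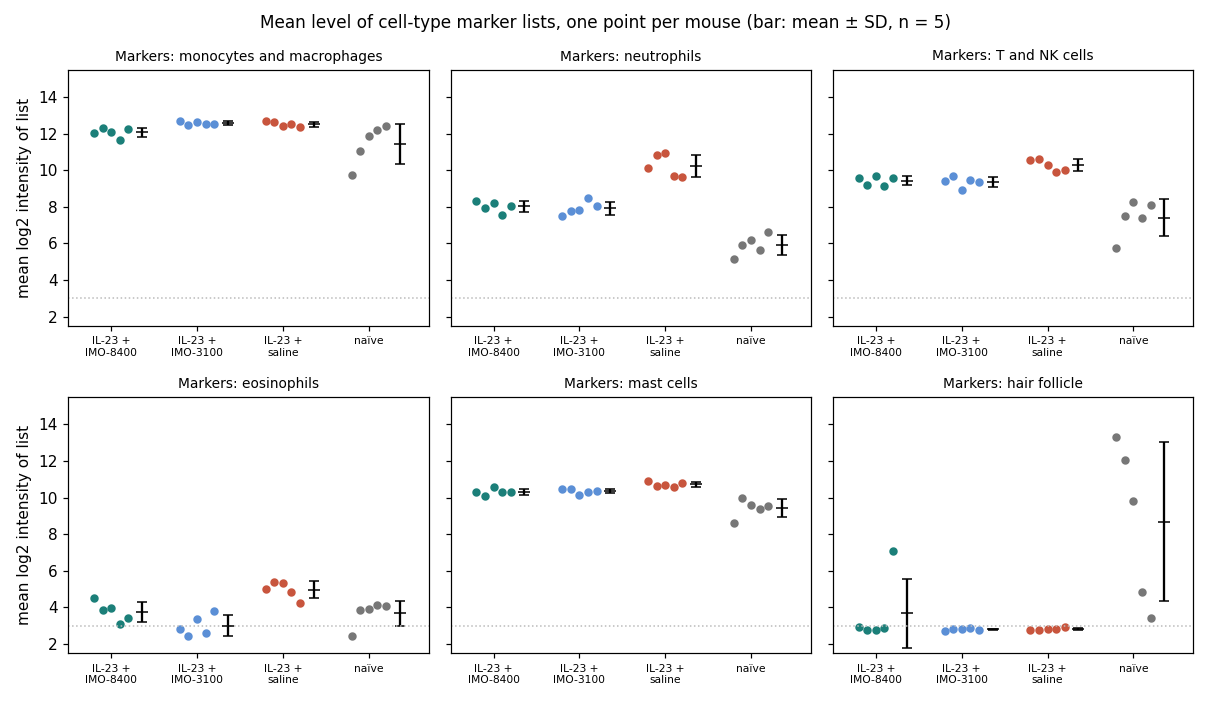
Mean log2 intensity (vertical axis) of 6 marker lists in each mouse, with the groups from left to right as for the ligands. Points are single mice and the bar is the mean ± SD of 5 mice. Neutrophil, mast cell and T and NK cell means of treated mice lie below all saline mice, for mast cells only just. Of the 7 mast cell genes only Hdc was called lower with either antagonist. Monocyte and macrophage means of IL-23 + IMO-8400 mice lie just below all saline mice, and those of IL-23 + IMO-3100 mice overlap them. Naïve replicate 1, the leftmost naïve point, is the lowest naïve mouse for 5 of the lists and highest for hair follicle genes.

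How members ran together mouse by mouse is described over the 20 arrays without a test. Ccl2 and Ccl7 had r = 0.99 over all arrays and r = 0.98 after the group means were taken off. Ccl3 and Ccl4 had r = 0.99 and 0.93, and Ccl8 and Ccr2 at 1421186_at r = 0.93 and 0.90, the last pair with naïve replicate 1 far below the other mice in both. Ccl5 had r = 0.89 with Ccl24, 0.88 with Ccr2 at 1421186_at and 0.87 with Ccl8 within groups, where naïve replicate 1 was low in all of them, and -0.59, 0.66 and 0.69 over all arrays. By contrast, Ccl3 and Ccl5 had r = 0.90 over all arrays and 0.28 within groups, so that their likeness lay mostly in the group means. In the annotation (GRCm38.p6) both close pairs of ligands are neighbours on chromosome 11, where Ccl7 follows Ccl2, and Ccl11, Ccl12 and Ccl8 come next. Ccl3 and Ccl4 also lie side by side on this chromosome, in a group with Ccl5. Ccl24 is on chromosome 5 beside Ccl26, and Ccr2 on chromosome 9 beside Ccr3.

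**Figure D5:**
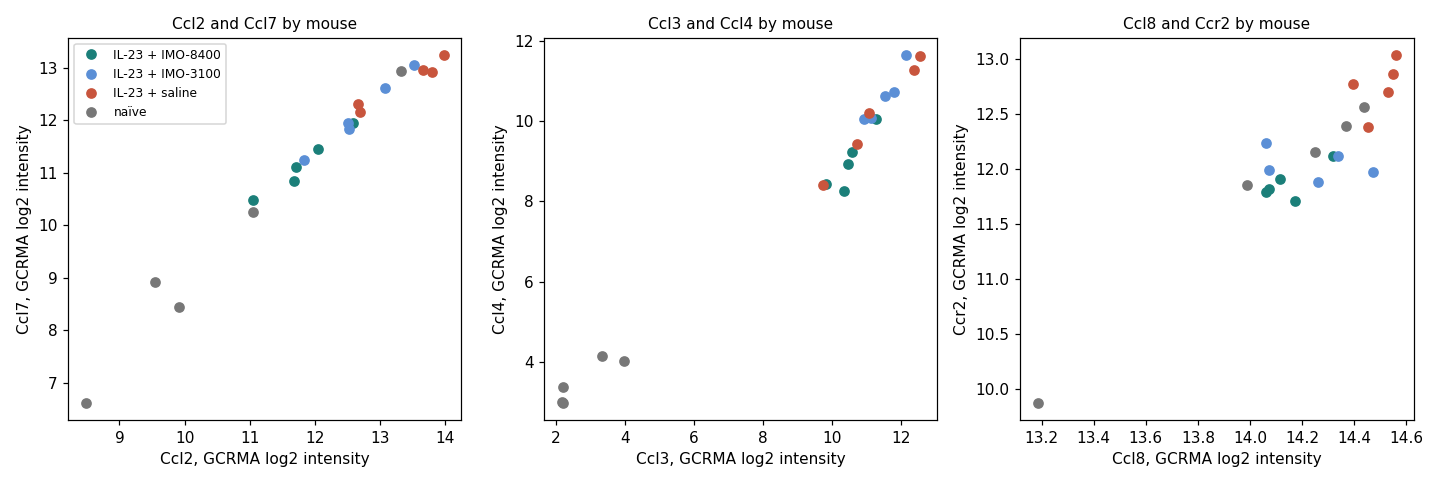
GCRMA log2 intensity of 1 member against another in each of the 20 mice, for Ccl2 and Ccl7, Ccl3 and Ccl4, and Ccl8 and Ccr2 (1421186_at). Each point is 1 mouse, coloured by group. Ccl2 and Ccl7 lie along 1 line in all groups (r = 0.99), while for Ccl3 and Ccl4 the naïve mice form a cluster of their own at the low end.

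The genes other than the members with the most similar profile differed between members. For Ccl2 they were Plek (r = 0.96 over 20 arrays), a protein of leukocytes and platelets, and Ccl12 (0.95). For Ccl3 they were Saa3 (0.98), an acute-phase protein, and Acod1 (0.98), which makes itaconate in activated macrophages, and Acod1 (0.97) and Btg1 (0.96) were closest to Ccl4. Within groups the values for Ccl3 were lower, 0.55 with Saa3 and 0.48 with Acod1. Ccl5 ran with Cxcl16 (0.99) and Havcr2 (0.98), with 0.97 and 0.91 within groups. These within-group values include naïve replicate 1, whose Ccl5 lay far below that of the other naïve mice. For Ccl7 they were Macir (0.96) and the macrophage Fc receptor Fcgr1 (0.95), for Ccl8 Rasgrp4 (0.96) and Nfam1 (0.94), for Ccl11 Plgrkt (0.93) and Traf3ip3 (0.91), for Ccl24 Tshr (0.94) and Tcaf1 (0.93), and for Ccr2 Gda (0.95) and Samhd1 (0.95). For Ccl24, which lay at or just above background in all IL-23-injected mice, Spearman's rho was lower, 0.48 with Tshr and 0.70 with Tcaf1. All 20 points of each comparison share their arrays and group structure.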

How the data were processed

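Gene expression was measured on 20 Affymetrix mouse4302 arrays, 1 array per mouse and 5 mice in each of 4 groups, and groups were taken from the sample records. The deposited table holds log2 values that the authors obtained with GCRMA from total RNA of full-thickness skin. Its version, scan dates and batches are not given in the sources used here, and the values were used without further normalization. The lowest value of every array was 2.02, and no detection calls were used. Precision is limited by the number of arrays. Of 45101 probe-sets, the annotation gives 34958 a single symbol, 932 several and 9211 none. Genes with several probe-sets are shown at each of them if members, and otherwise at the probe-set with the highest mean.

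The filter of the paper was applied, which keeps a probe-set when 3 or more arrays exceed 2 and the SD exceeds 0.1, and left 30960. As no value lay below 2, only the SD removed probe-sets (14141). Group means of all 20 arrays were fitted with lmFit and eBayes in limma 3.58.1 (R 4.3.3), Benjamini-Hochberg adjustment ran over all tested probe-sets, and intervals are the 95% intervals of limma. Up to 3 called genes of each list with the largest absolute log2FC were eligible to be named, and all measured receptors and related chemokines were. Likeness is Pearson's r over 20 arrays, with the 2 closest genes named. The members and lists were chosen with earlier results of these data known. The fit was tested on simulated data. The alternatives comprised a stricter filter and none, a floor of 4, 2 normalizations, 2 groups alone, a trended robust prior, array weights, FDR alone and leaving out each mouse, and, chosen after seeing the data, naïve replicates 1 and 2 left out together and list counts without naïve replicate 1. Replicate numbers follow the order of the records and pair no mice.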

Additional observations from a re-analysis of the deposited data

Results flagged for a closer look

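The 48 sets of 5 values given by 12 probe-sets in 4 groups were searched for a mouse far from the rest of its group, leaving out 2 sets near background, and chance flags about 1 in 20 such sets. There were 2 cases, both naïve replicate 1. Ccl5 was 3.17 in this mouse, whereas the other naïve mice lay between 7.24 and 8.59. Ccr2 at 1421186_at was 9.88, with the others between 11.86 and 12.57. The same mouse had the lowest monocyte and macrophage mean (9.73) and the highest hair follicle mean (13.31) of the naïve group, and what set it apart was not tested.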

How the results depend on the processing

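Each value was recomputed under 30 alternatives, 20 of which left out 1 mouse each. The count of DEGs among the 12 probe-sets was 9 in saline against naïve mice, with 9 to 11 on leaving out a mouse. For IMO-8400 against saline, 3 became 6 with the 2 groups alone, 7 with array weights and 6 without naïve replicates 1 and 2, and lay between 2 and 5 on leaving out a mouse, with 2 without saline replicate 1, 5 without naïve replicate 1 and 5 without naïve replicate 4. The additions came from Ccl2, Ccl4, Ccl5 and Ccl7. For IMO-3100 against saline, 3 lay between 2 and 4 under all alternatives. For IMO-8400 against IMO-3100, 0 became 1 (Ccl4) with the 2 groups alone and with array weights, and 0 to 1 on leaving out a mouse. For IMO-8400 against naïve mice, 4 became 7 without naïve replicates 1 and 2, with Ccr2 lower than naïve. No paired analysis was possible because the replicate numbers follow the order of the records. The cause of these changes was not tested. None of the DEGs of the 4-group fit changed direction.

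Of the log2FC that changed sign, all were uncalled in the 4-group fit. Against naïve mice, Ccr2 at 1421187_at with IMO-8400 was -0.077 with a floor of 4, -0.59 with array weights, -1.22 (a DEG) without naïve replicates 1 and 2, and -0.91 to 0.47 on leaving out a mouse, and with IMO-3100 it was -0.33, -0.87 and -0.55 to 0.82 under the last 3 of these. Ccr2 at 1421186_at was -0.26, -0.50 and -0.37 to 0.30 with IMO-8400 and -0.066, -0.33 and -0.20 to 0.47 with IMO-3100, and at 1421188_at with IMO-3100 it was -0.89 to 0.062 on leaving out a mouse. Ccl8 was -0.060, -0.20 and -0.11 to 0.20 with IMO-8400, and -0.11 without naïve replicates 1 and 2 and -0.019 to 0.29 on leaving out a mouse with IMO-3100. For IMO-3100 against saline, Ccl3 was -0.10 with array weights and -0.16 to 0.53 on leaving out a mouse, and Ccl4 -0.011 to 0.79. For IMO-8400 against IMO-3100, Ccr2 at 1460067_at was 0.14 with array weights and -0.16 to 0.18 on leaving out a mouse, and Ccl24 -0.046 to 0.17.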
